A study of Equus caballus with 10 samples.

Results

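The ADAMTS genes encode secreted zinc metalloproteases that carry thrombospondin repeats and cut molecules of the extracellular matrix. Their family holds several working groups: enzymes that cut the large proteoglycans aggrecan and versican (ADAMTS1, ADAMTS4, ADAMTS5 and ADAMTS9), enzymes that remove the N-propeptide from fibrillar procollagens (ADAMTS2, ADAMTS3 and ADAMTS14), enzymes that degrade cartilage oligomeric matrix protein (ADAMTS7 and ADAMTS12), and ADAMTS6, which belongs to a pair with ADAMTS10 that acts on microfibrils and on molecules of the cell surface. In tendon, where type I collagen fibrils bear the load and proteoglycans lie between them, the first group has a role in matrix turnover and the second in the making of fibrils. TIMP3 is their best known natural inhibitor.

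The 10 ADAMTS proteases described here were chosen by gene symbol, and 9 of them have a row in the deposited table of 29196 genes. ADAMTS3 was not analysed here. The values come from RNA of equine tenocytes, primary tendon cells isolated from the superficial digital flexor tendon of adult horses, passaged, and grown for 14 days in 3D collagen gels. In the group called PF alone, the gels received PF-06650833, a small molecule inhibitor of the kinase IRAK-4, daily at 100 nM. In the group called IL-1β plus PF, the gels received the same inhibitor in the same way, and the inflammatory cytokine IL-1β at 17 ng/ml every 3 to 4 days. Each group has 5 libraries, 1 from each of 5 donors, called donors 1 to 5. All 10 libraries were therefore made with the inhibitor present, and libraries without it were not used here. As a model of tendon they are limited in that the cells were passaged outside the tissue, and each library pools several gels of 1 donor.

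The libraries were paired reads of 150 bp, and the reads on genes, as estimated from the deposited values, numbered 26670000 to 36060000 with PF alone. With IL-1β plus PF there were 26980000 to 33460000 of them per library. Of 9 tenocyte markers, 8 were measured above the value of 0 reads in enough libraries to be tested. TNMD, a marker of mature tendon cells, was at the value of 0 reads in all 10 libraries. SCX, MKX and TNC were differentially expressed and lower with IL-1β plus PF. DCN went the other way and was higher in all 5 donors, with a log2 fold change of 1.01 (adjusted p = 0.268 by limma). The deposited log2 values were turned back into approximate normalized counts, and those of the tenocyte markers, summed, ranged from 841233 to 1415020 with PF alone and from 237588 to 987211 with IL-1β plus PF. Medians of COL1A1 and COL1A2 with PF alone were 412124 and 446623, so these collagen genes made up most of the sums there. With IL-1β plus PF they were 150816 and 184482, while the DCN median went from 35514 to 132635. The summed leukocyte markers ranged from 61.3 to 1768 with PF alone and from 171 to 1944 with IL-1β plus PF. The largest counts among them were those of CD14, up to 1662 with PF alone and up to 1682 with IL-1β plus PF. CD14 was at the value of 0 reads in 4 libraries (log2 fold change 2.66, adjusted p = 0.340 by limma). Among these leukocyte markers CD68 rose, while CD3E was at the value of 0 reads in all 10 libraries and PTPRC in 9. None of 4 tested endothelial markers and none of 2 tested chondrocyte markers was differentially expressed, and their sums stayed at or below 45.9 and 73.7 normalized counts. Of the other cell type markers, 3 of 4 for mural or muscle cells (RGS5, CSPG4 and DES) and 1 of 3 for epithelial cells (CDH1) were lower, and 1 of 3 for adipocytes (ADIPOQ) was higher. The mural or muscle sums ranged from 3458 to 36535 with PF alone and from 4138 to 12877 with IL-1β plus PF, the epithelial sums from 539 to 1574 and from 45.4 to 444, and the adipocyte sums from 17.8 to 248 and from 364 to 3556. MYH11 had the largest medians of the mural or muscle list, 13063 with PF alone and 4826 with IL-1β plus PF. It was not differentially expressed (log2 fold change -0.56, adjusted p = 0.678 by limma). All 6 genes of a list of IL-1 responses, among them IL6 and NFKBIA, were higher with IL-1β plus PF. The part of these marker differences in the ADAMTS results was not tested. In bulk RNA, fewer cells of a type and less RNA per cell cannot be told apart.

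ADAMTS6 fell and ADAMTS9 rose with IL-1β plus PF, and these were the 2 members of the 9 that were differentially expressed. The term differentially expressed is kept for genes with an adjusted p below 0.05 (limma, Benjamini-Hochberg adjustment over 17992 tested genes) whose log2 fold change is 1 or more in size. Of all tested genes, 6.68% were differentially expressed, with 3.11% higher and 3.57% lower, beside 1 of 9 members higher and 1 of 9 lower. With the adjusted p alone and no minimum fold change, ADAMTS4 also rose and ADAMTS2 also fell, so that 4 of 9 members passed, against 15.5% of all tested genes. All values given are log2 expression as deposited, in which a difference of 1 is a doubling for well expressed genes, and log2 fold changes are IL-1β plus PF minus PF alone. Since these values are not per length, levels are not compared between genes.

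Both groups hold the same 5 tenocyte lines, so the comparison was also fitted with the line as a replicate block, which compares the 2 libraries of each donor. With this block, 7 of 9 members had an adjusted p below 0.05 by limma, against 22.2% of all tested genes. ADAMTS4, ADAMTS5, ADAMTS7 and ADAMTS9 were higher, where 10.9% of all genes were, and ADAMTS2, ADAMTS6 and ADAMTS14 were lower, where 11.3% were. The differentially expressed members with the block were again ADAMTS6 and ADAMTS9, with 8.26% of all tested genes called. Among the markers, the block added COL1A1 and COL1A2 to the tenocyte markers that were lower, 5 in all, and LPL to the adipocyte markers that were higher. For DCN the adjusted p with the block was 0.0529 by limma. The same 7 members moved in the same direction in all 5 donors, as did 32.7% of all tested genes. For ADAMTS2, ADAMTS4 and ADAMTS6 the 5 values of one group did not overlap those of the other, which held for 12.7% of all tested genes. The median log2 fold change of the 9 members was 0.54 and their median absolute log2 fold change was 0.81, beside -0.01 and 0.25 over all tested genes. All tested genes include those with few reads, at which the deposited scale shrinks log2 differences. These comparisons with all genes were not matched for expression level.

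**Figure D1:**
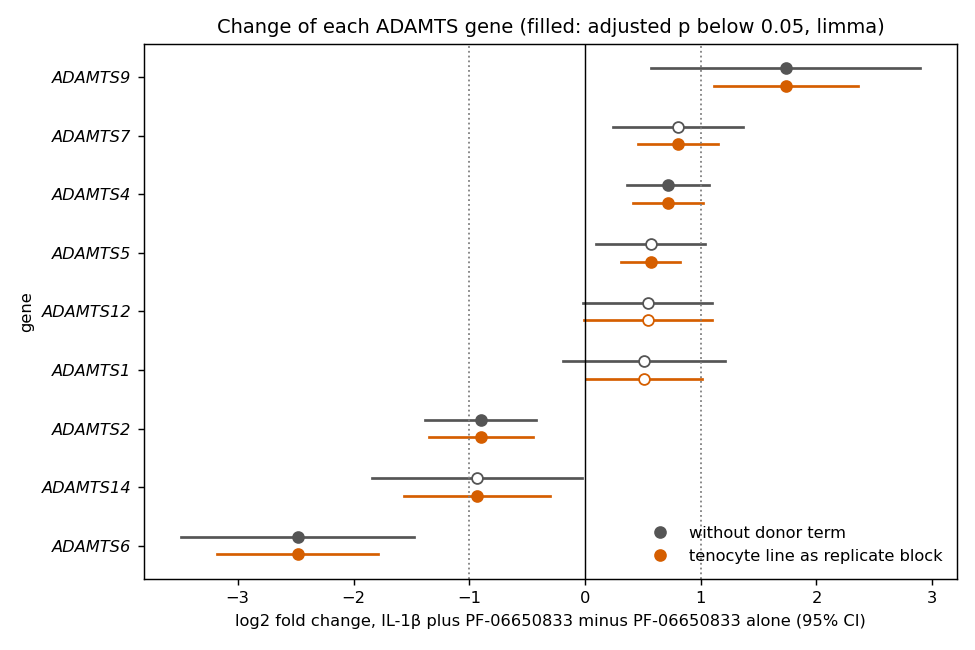
Log2 fold change (x axis, IL-1β plus PF-06650833 minus PF-06650833 alone) of the 9 ADAMTS genes (y axis), with 95% confidence intervals by limma without a donor term (grey) and with the tenocyte line as a replicate block (orange). Filled points have an adjusted p below 0.05, and the dotted lines mark a log2 fold change of -1 and 1. Only ADAMTS6 at -2.48 and ADAMTS9 at 1.73 lie beyond the dotted lines.

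ADAMTS9, which cuts aggrecan and versican, had the largest increase of the members. Its log2 expression with PF alone was 9.56, 9.99, 7.64, 8.60 and 7.82 in donors 1 to 5, and with IL-1β plus PF it was 10.17, 11.46, 9.43, 11.37 and 9.85. The groups overlapped, because donors 1 and 2 with PF alone lay above donor 3 with IL-1β plus PF, yet every donor was higher with IL-1β plus PF. The means were 8.72 ± 1.04 (SD, n = 5) and 10.46 ± 0.92 (SD, n = 5). The log2 fold change was 1.73 (standard error, SE, 0.53, 95% confidence interval 0.57 to 2.90), with an adjusted p of 0.048 by limma. With the replicate block the standard error was 0.27, the interval 1.11 to 2.36 and the adjusted p 0.00417. Within donors the difference was smallest in donor 1 at 0.61 and largest in donor 4 at 2.77, with a median of 1.79. In approximate normalized counts the median went from 367 (range 178 to 996) to 1128 (range 669 to 2802).

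Without the block, the call on ADAMTS9 was near the threshold, and leaving out single libraries ended it. The adjusted p by limma was 0.0940, 0.0923 and 0.11 without the PF alone library of donor 3, 4 or 5. It was 0.0809, 0.115, 0.0837 and 0.0595 without the IL-1β plus PF library of donor 1, 2, 4 or 5. Leaving out a whole donor gave 0.0857, 0.0638, 0.0556, 0.141 and 0.126 for donors 1 to 5. With the block, ADAMTS9 passed an adjusted p of 0.05 without any one of the donors, with values between 0.00485 and 0.0171.

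ADAMTS4, an aggrecanase, rose by less than the minimum fold change and had the narrowest spread of the members between donors with IL-1β plus PF. Its log2 expression with PF alone was 8.48, 8.93, 9.10, 8.53 and 9.12 in donors 1 to 5, and with IL-1β plus PF it was 9.27, 9.79, 9.60, 9.61 and 9.47. The groups did not overlap, although the highest value with PF alone and the lowest with IL-1β plus PF lay close together. The means were 8.83 ± 0.31 (SD, n = 5) and 9.55 ± 0.19 (SD, n = 5), and the log2 fold change was 0.72 (SE 0.16, 95% confidence interval 0.36 to 1.07, adjusted p = 0.0131 by limma). All 5 donors were higher, by 0.35 to 1.08. Without donor 2 the log2 fold change was 0.68 and the adjusted p was 0.0650.

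ADAMTS5, the other main aggrecanase, passed the test with the replicate block and did not pass it without. Its log2 expression with PF alone was 10.68, 11.50, 10.93, 11.71 and 11.26 in donors 1 to 5, and with IL-1β plus PF it was 11.54, 11.64, 11.46, 12.32 and 11.96. Donor 4 had the highest value in both groups, and the groups overlapped. The means were 11.22 ± 0.42 (SD, n = 5) and 11.78 ± 0.35 (SD, n = 5), a log2 fold change of 0.57 (SE 0.22, 95% confidence interval 0.09 to 1.04, adjusted p = 0.103 by limma). With the block the standard error was 0.11 and the adjusted p 0.0107. The 5 donors were higher by 0.13 (donor 2) to 0.86 (donor 1), the narrowest SD of donor differences among the members at 0.27.

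ADAMTS1, which also cuts versican and aggrecan, did not pass the test with or without the block. Its log2 expression ranged from 9.23 to 10.78 with PF alone and from 9.82 to 11.23 with IL-1β plus PF. The log2 fold change was 0.51 (SE 0.32, 95% confidence interval -0.19 to 1.21, adjusted p = 0.317 by limma, and 0.131 with the block). Donor 1 was lower with IL-1β plus PF, by -0.51, and the other 4 donors were higher, by 0.45 to 1.09. Without donor 1 and with the block, the log2 fold change was 0.77 and the adjusted p was 0.0205. Without any one of the other 4 donors, the blocked log2 fold change lay between 0.37 and 0.53 and the adjusted p between 0.221 and 0.310. Without the block, it was 0.31 (adjusted p = 0.557) when the PF alone library of donor 4 was left out and 0.34 (adjusted p = 0.562) when the IL-1β plus PF library of donor 2 was. ADAMTS1 and ADAMTS5 are neighbouring protein-coding genes in the RefSeq annotation of the TB-T2T horse assembly.

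**Figure D2:**
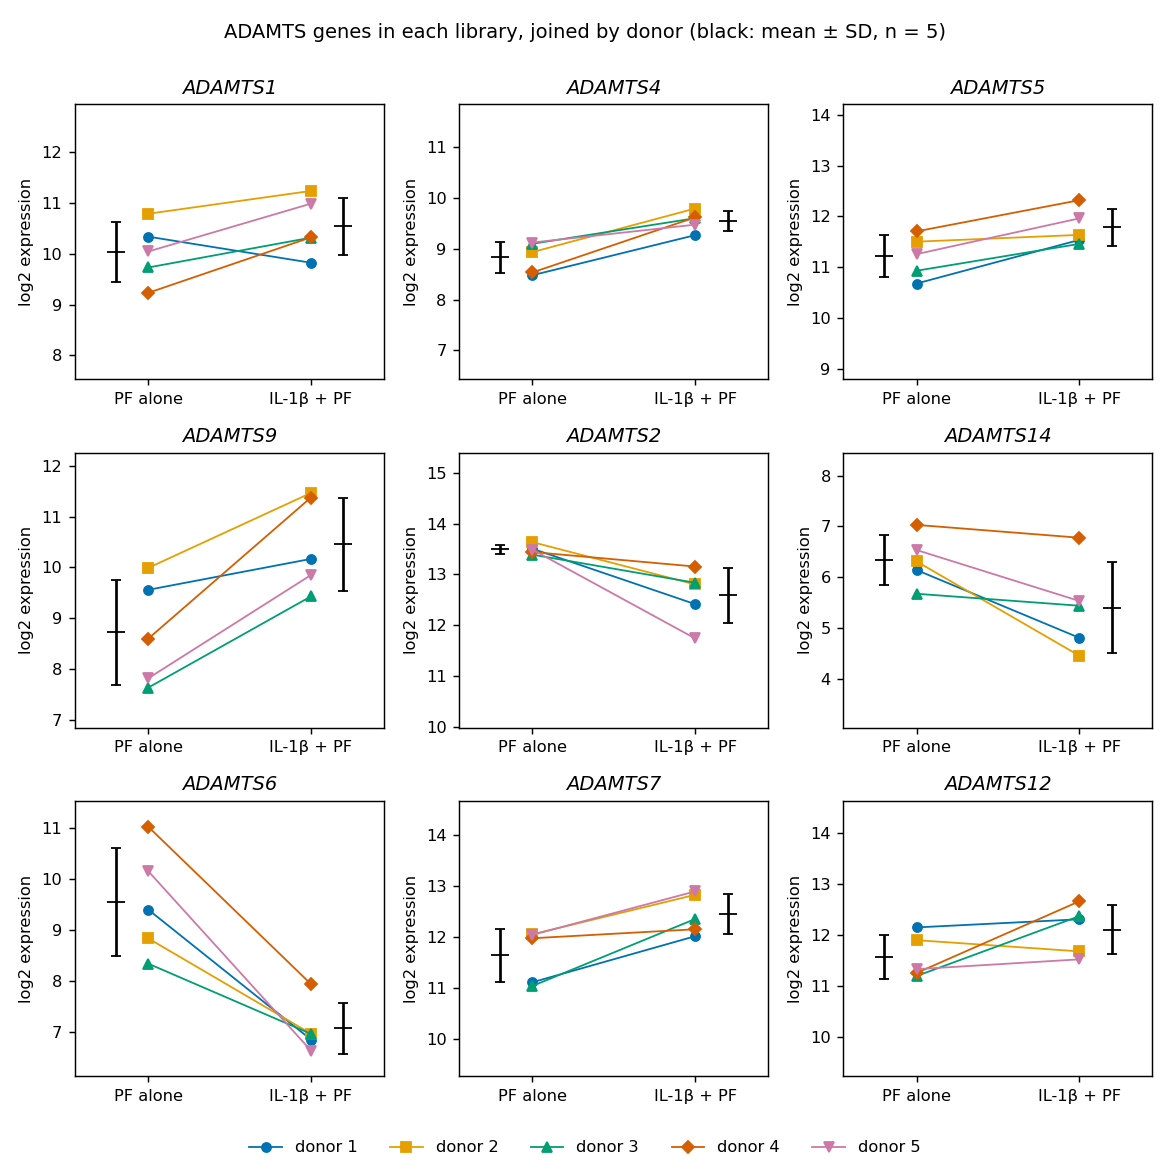
Log2 expression (y axis, 1 panel per gene, each spanning the same range) of the 9 ADAMTS genes in each library with PF alone and with IL-1β plus PF (x axis), with lines joining the libraries of the same donor and black bars for the mean ± SD of 5 donors. The 5 lines of ADAMTS6 go down and the 5 lines of ADAMTS9 go up, while for ADAMTS1 and ADAMTS12 donor lines run in both directions.

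ADAMTS2, the main procollagen N-propeptidase of type I collagen, fell, and its spread between donors was wider with IL-1β plus PF. Its log2 expression with PF alone was 13.51, 13.64, 13.39, 13.44 and 13.49 in donors 1 to 5, and with IL-1β plus PF it was 12.42, 12.80, 12.84, 13.16 and 11.74. With PF alone the donors lay within a narrow range, all above every library with IL-1β plus PF. The means were 13.49 ± 0.09 (SD, n = 5) and 12.59 ± 0.54 (SD, n = 5), and the log2 fold change was -0.90 (SE 0.22, 95% confidence interval -1.38 to -0.42, adjusted p = 0.0184 by limma). The decrease was smallest in donor 4, at -0.29, and largest in donor 5, at -1.74. In approximate normalized counts the median went from 11452 (range 10703 to 12700) to 7127 (range 3406 to 9101).

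The size of the ADAMTS2 decrease lay close to the minimum fold change. Without the IL-1β plus PF library of donor 4 the log2 fold change was -1.04 (adjusted p = 0.00661 by limma) and without both libraries of donor 4 it was -1.05 (adjusted p = 0.0150), so that ADAMTS2 was then differentially expressed. Without donor 1 the adjusted p was 0.0941 and without donor 2 it was 0.0700. With the block these 2 values were 0.0662 and 0.05003, neither below 0.05.

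ADAMTS14, a second procollagen N-propeptidase, had the fewest reads behind it of the members. Its log2 expression with PF alone was 6.14, 6.31, 5.68, 7.03 and 6.54 in donors 1 to 5, and with IL-1β plus PF it was 4.81, 4.46, 5.44, 6.78 and 5.54. Every donor was lower with IL-1β plus PF, but donor 4 stood above the others in both groups and the groups overlapped. The means were 6.34 ± 0.50 (SD, n = 5) and 5.41 ± 0.89 (SD, n = 5), a log2 fold change of -0.93 (SE 0.41, 95% confidence interval -1.84 to -0.03). The adjusted p was 0.157 without the block and 0.044 with it, both by limma. The decreases ranged from -0.23 in donor 3 to -1.85 in donor 2. The approximate normalized counts had a median of 59.3 (range 31.9 to 110) and of 24.6 (range 5.73 to 89.3), and at such counts the deposited scale understates log2 differences. On the scale of log2(normalized count + 1) the log2 fold change was -1.47, and its adjusted p with the block was 0.0553, so that ADAMTS14 did not pass the test on that scale.

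The test of ADAMTS14 turned on single donors. Without the IL-1β plus PF library of donor 4 the log2 fold change was -1.28 (adjusted p = 0.0217 by limma), and without donor 4 it was -1.10 (adjusted p = 0.0440). With the block the adjusted p was 0.144, 0.127 and 0.109 without donors 1, 2 and 5.

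ADAMTS6 had the largest change of the 9 members, and fell in every donor. Its log2 expression with PF alone was 9.40, 8.84, 8.34, 11.03 and 10.16 in donors 1 to 5, and with IL-1β plus PF it was 6.85, 6.97, 6.96, 7.94 and 6.64. The groups did not overlap, since the highest value with IL-1β plus PF, in donor 4, was below the lowest value with PF alone, in donor 3. The means were 9.56 ± 1.07 (SD, n = 5) and 7.07 ± 0.50 (SD, n = 5). The log2 fold change was -2.48 (SE 0.46, 95% confidence interval -3.49 to -1.47, adjusted p = 0.00494 by limma). With the block the standard error was 0.30 and the adjusted p 0.00171. In approximate normalized counts the median went from 656 (range 304 to 2072) to 104 (range 79.0 to 225).

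The donors differed in ADAMTS6 mainly with PF alone. The decreases were -1.38 in donor 3, -1.87 in donor 2, -2.55 in donor 1, -3.09 in donor 4 and -3.52 in donor 5. The donors with the lowest values with PF alone, donors 3 and 2, had the smallest decreases, and those with the highest, donors 4 and 5, had the largest. Since a decrease is computed from the PF alone value itself, this order is a description only. The call on ADAMTS6 held in each of the 28 alternatives tried, with log2 fold changes between -2.79 and -2.11 and adjusted p-values by limma between 0.00133 and 0.0373.

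ADAMTS7 and ADAMTS12, which degrade cartilage oligomeric matrix protein, had log2 fold changes of 0.81 and 0.54. ADAMTS7 log2 expression with PF alone was 11.12, 12.06, 11.04, 11.98 and 12.05 in donors 1 to 5, and with IL-1β plus PF it was 12.02, 12.83, 12.36, 12.16 and 12.90. With PF alone donors 1 and 3 stood below the other 3, and the groups overlapped. The means were 11.65 ± 0.52 (SD, n = 5) and 12.45 ± 0.40 (SD, n = 5). The standard error of its log2 fold change was 0.26, the 95% confidence interval 0.24 to 1.37 and the adjusted p 0.0557 by limma, and 0.00835 with the block. All 5 donors were higher, by 0.18 in donor 4 to 1.32 in donor 3. Without the block, the adjusted p was 0.0493 when the IL-1β plus PF library of donor 4 was left out and 0.0372 when each library was centred on its median. In the other alternatives without the block it stayed above 0.05, up to 0.130 without the IL-1β plus PF library of donor 2.

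ADAMTS12 did not pass the test with or without the block. Its log2 expression ranged from 11.19 to 12.15 with PF alone and from 11.52 to 12.66 with IL-1β plus PF. The 95% confidence interval of its log2 fold change was -0.01 to 1.10, with an adjusted p of 0.178 by limma and of 0.144 with the block. Donors 3 and 4 were higher by 1.18 and 1.41, and the other 3 donors differed by -0.22 to 0.19.

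**Figure D3:**
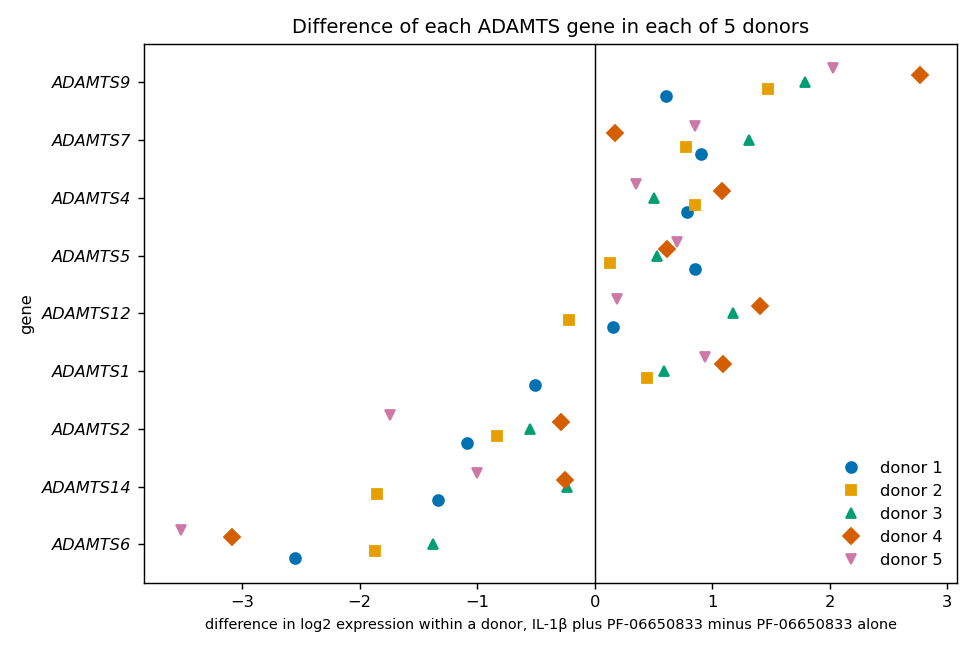
Difference in log2 expression within each donor (x axis, IL-1β plus PF-06650833 minus PF-06650833 alone) for the 9 ADAMTS genes (y axis), with 1 symbol per donor. All 5 symbols lie right of 0 for ADAMTS4, ADAMTS5, ADAMTS7 and ADAMTS9 and left of 0 for ADAMTS2, ADAMTS6 and ADAMTS14.

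No donor stood at one end for all members. Donor 4 had the highest value in both groups for ADAMTS5, ADAMTS6 and ADAMTS14, and donor 2 for ADAMTS1 and ADAMTS9. Donor 3 had the lowest value with PF alone for ADAMTS2, ADAMTS6, ADAMTS7, ADAMTS9, ADAMTS12 and ADAMTS14. The SD of the donor differences was largest for ADAMTS6 at 0.87 and ADAMTS9 at 0.79, and smallest for ADAMTS5 at 0.27 and ADAMTS4 at 0.29.

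The genes whose values were most like those of ADAMTS6 over the 10 libraries were ADAM19, a membrane-bound metalloprotease (Pearson r = 0.987), HEATR5A (0.986) and CAMK2D (0.9795). Over deviations from the group means, which leave out the difference between groups, they were SMTNL2 (0.989), HEATR5A (0.964) and ADAM19 (0.949). HEATR5A and ADAM19 were among the first 3 by both measures. For ADAMTS9 the genes were ZMYND8 (0.947), FAM19A2 (0.945) and TRANK1 (0.931) over values, and RTL1 (0.939), SLC38A6 (0.924) and CCDC33 (0.906) over deviations, with none in common. These coefficients describe 10 libraries that share 5 donors. They are the largest among the 17992 tested genes after leaving out the members and genes whose symbol starts with LOC.

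The other genes of the ADAMTS pathway were taken as 9 lists of 63 genes in all, of which 54 were tested. ADAMTSL3, COL3A1 and A2M were not analysed here, and the rest had too few libraries above the value of 0 reads. Of the 54, 16 were differentially expressed, 5 higher and 11 lower, and the median log2 fold change of the 54 was -0.27. Over all tested genes 6.68% were differentially expressed, 3.11% higher and 3.57% lower, with a median of -0.01. The counts in each list below stand beside these same shares. The differences of each list are set beside those of the members that act on it, with no test between them.

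None of the 6 tested relatives in the list of other ADAMTS proteases was differentially expressed. Their log2 fold changes ran from -0.75 to -0.10. ADAMTS10, the closest relative of ADAMTS6, had a log2 fold change of -0.75 (adjusted p = 0.1503 by limma), and was lower in 4 of 5 donors. ADAMTS17 had a log2 fold change of -0.53 and was lower in all 5 donors, with an adjusted p of 0.202 and of 0.0365 with the block. ADAMTS13, the protease of von Willebrand factor, and ADAMTS18 were at the value of 0 reads in all 10 libraries, and ADAMTS8 was in 8.

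The ADAMTS-like proteins lack the protease domain and bind microfibrils and other matrix. Of 6 tested, ADAMTSL2 fell and THSD4, also known as ADAMTSL6, rose. ADAMTSL2 went from 6.34 ± 0.48 (SD, n = 5) to 4.63 ± 0.51 (SD, n = 5), which is a log2 fold change of -1.71 (SE 0.30, limma adjusted p = 0.00387), and was lower in all 5 donors. Its median normalized count went from 66.9 (range 28.6 to 94.1) to 6.82 (range 1.33 to 18.5). At such counts the deposited scale understates log2 differences. THSD4 went from 9.28 ± 0.89 (SD, n = 5) to 11.12 ± 1.12 (SD, n = 5), which is a log2 fold change of 1.84 (SE 0.55, limma adjusted p = 0.0436), and was higher in 4 of 5 donors. ADAMTSL4 rose by 0.79 (adjusted p = 0.0103 by limma), below the minimum fold change.

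Among 8 tested proteoglycans and link proteins, the substrates of the aggrecanases and their partners, 2 fell and 1 rose. ACAN, which encodes aggrecan, had a log2 fold change of -6.29 (adjusted p = 9.8e-05 by limma), and HAPLN3, a link protein, of -1.79 (adjusted p = 0.0231). BCAN, which encodes brevican, rose by 1.31 (adjusted p = 0.00604 by limma) at low counts. VCAN, which encodes versican, had a log2 fold change of 0.82 (adjusted p = 0.126 by limma).

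Among 8 tested genes of procollagens and their processing, 3 fell and 1 rose, beside the decrease of ADAMTS2. TLL1, a procollagen C-proteinase, had a log2 fold change of -2.66 (adjusted p = 0.00978 by limma), PCOLCE, an enhancer of that cleavage, of -2.17 (adjusted p = 0.00226), and COL5A1 of -1.10 (adjusted p = 0.0468). PCOLCE2 rose by 1.57 (adjusted p = 0.0451 by limma). COL1A1 and COL1A2, the 2 chains of type I collagen that ADAMTS2 trims, had log2 fold changes of -1.38 and -1.28, with adjusted p-values by limma of 0.0682 and 0.0614, and of 0.0147 and 0.0169 with the block. With the block, 5 genes of this list were differentially expressed and lower.

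Of the substrates of ADAMTS7 and ADAMTS12, COMP, the gene of cartilage oligomeric matrix protein, fell with a log2 fold change of -3.63 (adjusted p = 0.00794 by limma) and THBS1 with one of -2.85 (adjusted p = 0.0162). GRN, the gene of progranulin, had a log2 fold change of -0.08 (adjusted p = 0.663 by limma). Of 6 genes of microfibrils and cell-surface matrix, which ADAMTS6 and its relatives act on, FN1 was differentially expressed, with a log2 fold change of -1.41 (adjusted p = 0.0369 by limma). MFAP5 had a log2 fold change of -2.78, with an adjusted p of 0.0536 and of 0.0179 with the block.

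Of the axis in which ADAMTS3 activates the lymphatic growth factor VEGF-C, VEGFC rose by 1.48 (adjusted p = 1.71e-04 by limma) and CCBE1, the cofactor of that cleavage, fell with a log2 fold change of -1.45 (adjusted p = 0.00708). The receptor gene FLT4 was at the value of 0 reads in all 10 libraries. Of 7 tested inhibitors and clearance receptors, TIMP1 was differentially expressed and rose by 1.31 (adjusted p = 0.045 by limma). SDC1 rose by 0.54 (adjusted p = 0.0450 by limma), below the minimum fold change. TIMP3, the inhibitor of the aggrecanases, had a log2 fold change of -0.47 (adjusted p = 0.608 by limma). LRP1, the receptor that clears ADAMTS4 and ADAMTS5, had a log2 fold change of -0.91, with an adjusted p of 0.116 and of 0.0176 with the block. Of 8 genes that process ADAMTS proenzymes or add sugars to their thrombospondin repeats, PCSK6, a proprotein convertase, was differentially expressed, with a log2 fold change of -1.95 (adjusted p = 0.00396 by limma), while that of FURIN was 0.21 (adjusted p = 0.380). PCSK5, another proprotein convertase, had a log2 fold change of 1.08 and was higher in 4 of 5 donors, with an adjusted p of 0.0692 and of 0.0238 with the block, by which it was differentially expressed. Below the minimum fold change, B3GLCT had a log2 fold change of -0.38 (adjusted p = 0.0193 by limma) and DPY19L3 of 0.60 (adjusted p = 0.0173).

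**Figure D4:**
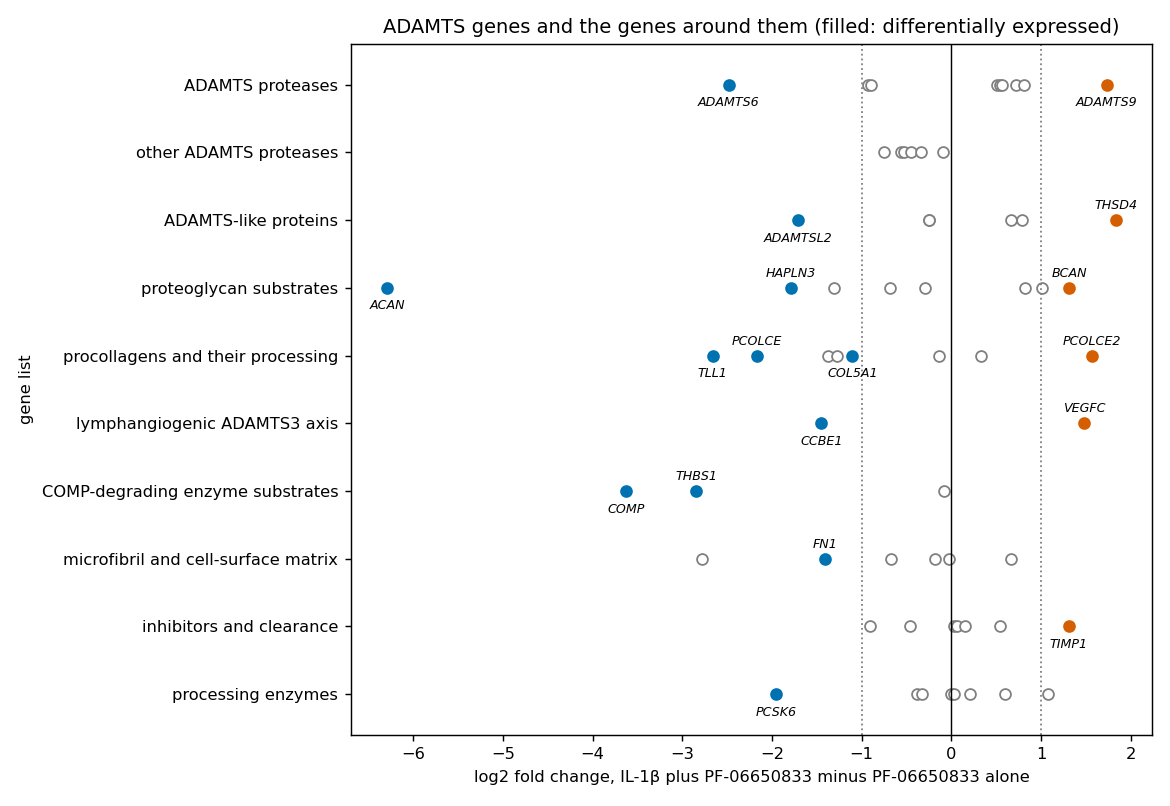
Log2 fold change (x axis, IL-1β plus PF-06650833 minus PF-06650833 alone) of the tested ADAMTS genes and of the tested genes of 9 lists around them (y axis, 1 row per list), with 1 point per gene. Filled and named points are differentially expressed (orange higher, blue lower), and open points are not. ACAN lies farthest left at -6.29, and no point in the row of other ADAMTS proteases is filled.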

How the data were processed

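Sequencing reads were checked with FastQC 0.11.9 and assigned to EquCab3.0 transcripts with Salmon 1.8 under a GC-bias correction, and DESeq2 1.36 is named too, per the submitters' processing notes. The authors deposited log2 values for 29196 genes. They share a lowest value of 3.433 at 0 reads and were recognised from the values as variance-stabilized, a step that shrinks log2 differences at few reads. All 10 columns of values were used (0 left out). Normalized counts were recovered by inverting that transformation and are approximate, as between 64.7% and 84.6% of the low values per library came within 0.15 of a whole number of reads.

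The 17992 genes that exceeded the value of 0 reads in 5 or more libraries were fitted with limma 3.58.1 (R 4.3.3) with a mean-variance trend and no donor term, with Benjamini-Hochberg adjustment over all of them, and also with the tenocyte line as a replicate block. The 2 libraries of a line come from the same donor. Their deviations from the group means correlated across genes at 0.433 on average (0.367 to 0.506, 5 pairs), against -0.107 (-0.266 to 0.0869) for 20 pairs of different donors. Correlations between libraries were 0.966 to 0.991, so none was deposited in duplicate. All p-values are two-sided.

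The members and the gene lists were chosen with earlier results of these data known. Named genes are all members, the differentially expressed genes of each list (at most 5), the 3 genes most like each differentially expressed member, and a few genes of these lists, named for their role, that were chosen after their values were seen. The fit without the block was tried on simulated data. It called 89 of 100 genes changed by 1.5 in log2, 95 of 100 changed by 2, and 6 of 17590 unchanged genes. The simulation held no differences between donors and a spread set by count alone, so it does not cover the block or genes with wider spread. Alternatives were other filters, scales, variance models and thresholds, the block, and fits lacking 1 library or 1 donor. RefSeq genes of the TB-T2T assembly served for names and neighbours, and all 10 members matched. No sequences or positions are given. The strand setting of the counting is not given in the sources used here, so reads of antisense genes cannot be told apart.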

Additional observations from a re-analysis of the deposited data

Results flagged for a closer look

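With IL-1β plus PF, the ADAMTS6 value of donor 4 was 7.94, while the other 4 donors lay between 6.64 and 6.97. Its gap to the nearest of them was 0.746 of the range of the group, above Dixon's 95% critical value of 0.71 for 5 samples. Donor 4 also had the highest ADAMTS6 value with PF alone, at 11.03. Of 18 groups of 5 values examined for the 9 members this was the one above the limit, and chance gives about 0.9.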

How the results depend on the processing

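No member changed direction in any of the 28 alternatives. The call on ADAMTS6 held in all 28, ADAMTS1 and ADAMTS12 were called in 0 of them, and the call on ADAMTS9 was lost in 16. Each of those 16 was a fit without the block. Over all 28, the log2 fold change of ADAMTS9 was between 1.46 and 2.05 and its adjusted p from limma between 0.00417 and 0.141. When all genes that were not constant were tested, without a mean-variance trend, with a robust trend, or at an adjusted p below 0.01, 1 member was differentially expressed and 0 were higher. With array weights 2 members were lower. At an adjusted p below 0.01, 719 genes were called, 345 higher and 374 lower, 9 of them in the pathway lists. With no minimum fold change, 2782 genes were called, 1362 higher and 1420 lower, and 4 members, 2 higher and 2 lower. The replicate block without a minimum fold change gave 3996 genes, 1969 higher and 2027 lower, 7 members, 4 higher and 3 lower, and 27 pathway genes, where no block gave 4 members. The replicate block on the scale of log2(normalized count + 1) gave 1809 genes, 891 of them higher. With the usual thresholds the block changed no member's call. Leaving out a library or donor gave 762 to 1422 genes, 356 to 647 higher and 389 to 775 lower, 1 to 3 members, 0 to 1 higher and 1 to 3 lower, and 8 to 20 pathway genes. The cause of these shifts was not tested.

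The 7 members at an adjusted p below 0.05 with the block were 5 to 7 when 1 donor was left out, 6 on the scale of log2(normalized count + 1), where ADAMTS14 did not pass, and 7 after quantile normalization or centring, alternatives chosen after seeing the data. With 5 donors, ADAMTS14 at its low counts is the member least well measured.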
